A study of Mus musculus with 4 samples.

Results

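The 43 genes described here are the enzymes and transporters of glycolysis, the kinases that control what becomes of pyruvate, and a set of genes of the hypoxia response. They were chosen by name, as rows of the count table whose gene symbol equals one of 43 listed symbols, and all 43 were found among 32285 genes. The list holds 30 genes of glycolysis, lactate and pyruvate control and 13 genes of the hypoxia response. RNA was sequenced from GS cells, a culture of spermatogonia started from mouse testis. The 4 libraries came from wild-type cells of 2 strains, 129 (2 libraries) and C57BL/6, written B6 (2 libraries), and in both strains the cells were established from mice aged 10 days. The labels give neither the number of mice, the passage or the oxygen level of the cultures, nor the meaning of the mark F0 in the B6 titles. They do not say either whether the 2 libraries of each strain were grown as separate cultures. P-values therefore measure only how these samples spread, and that spread may be technical.

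Glycolysis turns glucose into pyruvate, first spending ATP in a preparatory phase and then regaining it in a payoff phase. Pyruvate is reduced to lactate and exported, or it enters mitochondria through pyruvate dehydrogenase, which the Pdk kinases switch off. When oxygen is low, the hypoxia-inducible factor HIF is no longer hydroxylated by the Egln enzymes, escapes degradation and activates many glycolysis genes together with genes such as Bnip3, Vegfa and Ankrd37. It binds DNA at a short core sequence. Spermatogonial stem cells in culture are known to rely on glycolysis.

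The promoter sequences of 6 members are printed as examples. Pfkfb3 and Eno1 passed the test between the strains. Slc16a3, Ankrd37, Bnip3 and Ldha lay at least 2-fold apart between the B6 libraries, as did other members that are not printed. Each line gives the 250 bases before a transcription start on the strand of the gene, from RefSeq on build GRCm38.p6. Capitals mark the core of the hypoxia response element, ACGTG or GCGTG, on either strand (CACGT and CACGC on the opposite strand); the palindrome CACGTG counts once on each strand. The windows are chr2:11502091-11502340 (minus strand) for Pfkfb3, chr4:150236458-150236707 (plus strand) for Eno1, chr11:120948817-120949066 (plus strand) for Slc16a3, chr8:45999851-46000100 (minus strand) for Ankrd37, chr7:138909507-138909756 (minus strand) for Bnip3 and chr7:46845554-46845803 (plus strand) for Ldha. For Pfkfb3 and Ldha, which have more than 1 start, the window with the most matches is shown, and for Eno1 the window that lies upstream of the annotated gene. The windows shown for Pfkfb3, Slc16a3, Ankrd37 and Ldha lie inside the annotated genes. The windows not shown held 1 match for Pfkfb3, 1 for Ldha and 2 each for Eno1.
Pfkfb3: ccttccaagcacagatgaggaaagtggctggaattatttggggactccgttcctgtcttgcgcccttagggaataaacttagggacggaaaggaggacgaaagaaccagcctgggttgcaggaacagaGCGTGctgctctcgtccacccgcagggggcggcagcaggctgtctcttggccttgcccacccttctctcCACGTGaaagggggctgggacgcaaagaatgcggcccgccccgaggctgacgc
Eno1: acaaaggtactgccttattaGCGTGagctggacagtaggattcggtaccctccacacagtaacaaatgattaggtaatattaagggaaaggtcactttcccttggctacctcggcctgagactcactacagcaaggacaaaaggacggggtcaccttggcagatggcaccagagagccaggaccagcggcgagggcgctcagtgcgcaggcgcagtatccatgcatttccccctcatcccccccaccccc
Slc16a3: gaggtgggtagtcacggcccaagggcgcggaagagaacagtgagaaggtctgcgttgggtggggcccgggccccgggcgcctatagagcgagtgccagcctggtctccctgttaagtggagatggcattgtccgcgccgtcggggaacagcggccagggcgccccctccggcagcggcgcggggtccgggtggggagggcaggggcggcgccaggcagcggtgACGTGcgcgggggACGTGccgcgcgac
Ankrd37: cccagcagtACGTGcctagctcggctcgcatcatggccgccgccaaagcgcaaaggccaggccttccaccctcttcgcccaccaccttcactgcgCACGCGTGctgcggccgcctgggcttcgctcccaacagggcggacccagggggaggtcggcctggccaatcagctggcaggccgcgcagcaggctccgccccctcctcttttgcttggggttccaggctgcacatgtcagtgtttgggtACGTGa
Bnip3: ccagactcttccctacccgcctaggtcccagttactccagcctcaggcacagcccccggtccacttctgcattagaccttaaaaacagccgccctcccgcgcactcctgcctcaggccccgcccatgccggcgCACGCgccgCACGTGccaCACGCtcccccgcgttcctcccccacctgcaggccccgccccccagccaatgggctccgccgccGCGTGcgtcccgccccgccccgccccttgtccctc
Ldha: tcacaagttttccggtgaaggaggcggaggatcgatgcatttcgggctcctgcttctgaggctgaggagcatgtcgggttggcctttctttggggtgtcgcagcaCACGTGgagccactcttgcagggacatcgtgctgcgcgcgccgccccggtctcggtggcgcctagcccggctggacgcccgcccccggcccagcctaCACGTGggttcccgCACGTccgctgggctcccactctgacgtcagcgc

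Bnip3 and Ldha each held 5 matches, Ankrd37 held 4, Pfkfb3 held 3, Slc16a3 held 2 and this Eno1 window held 1. Some tested members not printed lay farther apart between the B6 libraries than Ldha. Of these, Tpi1 and Eno2 had 0 matches, Pfkl had 1, Pgk1 and Egln1 had 2 each and P4ha1 had 3. The matches of Slc16a3 start 27 and 14 bases before the transcription start, and those of Ldha between 145 and 34 bases before it. RefSeq promoters were found for 41 of the 43 members, with 63 windows in all, and 48 of these (76.2%) held at least 1 match, against 12679 of 32851 windows of all genes (38.6%). At least 2 matches stood in 27 member windows (42.9%), against 16.7% of all windows. Among the hypoxia response genes 12 of 15 windows (80.0%) had a match, and among the glycolysis genes 36 of 48 (75.0%). The member windows had a median GC content of 59.6%, against 52.4% over all windows, and the share of matches was not compared at equal GC. A match is a stretch of letters and not a measured binding site.

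Between the strains, 2 members passed the test and both were lower in 129: the enolase gene Eno1 and Pfkfb3, whose product makes an activator of phosphofructokinase. Several other members, among them the known HIF targets Slc16a3, Ankrd37, Bnip3 and Egln3, had lower values in both 129 libraries without passing it. For many of these genes the B6 libraries also lay far apart, with B6 replicate 1 the higher in 33 of 42 tested members. Hif1a, Vegfa, Ddit4 and Adm of the hypoxia response had log2 fold changes above 0 (0.66, 0.34, 0.079 and 0.98), and their strains overlapped. Expression is given as CPM, read counts relative to the scaled size of each library, and 42 of the 43 members passed the filter on low counts. All 42 were tested with edgeR's quasi-likelihood test in one fit over 16005 genes, with Benjamini-Hochberg adjustment and a threshold of 0.05. The 2 called members are 4.76% of those tested, against 2.86% of all genes called in either direction and 1.02% called lower in 129. No member was called higher in 129 by edgeR, while 1.84% of all genes were; at an unadjusted p under 0.05 edgeR had 2 members higher and 14 lower, DESeq2 called 2 higher and limma-voom 0.

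The members took 4888 and 4308 CPM in all in the 129 libraries, against 7570.3 and 5220.3 CPM in the B6 libraries. The total was highest in B6 replicate 1, and the other B6 library stood closer to the 129 libraries. In these bulk samples fewer cells of a type and less RNA per cell cannot be told apart. Library totals were 20798809 and 20375086 counts in 129, against 25374801 and 20488618 counts in B6. B6 replicate 1 was thus also the deepest library, and its part in the result was not tested.

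**Figure D1:**
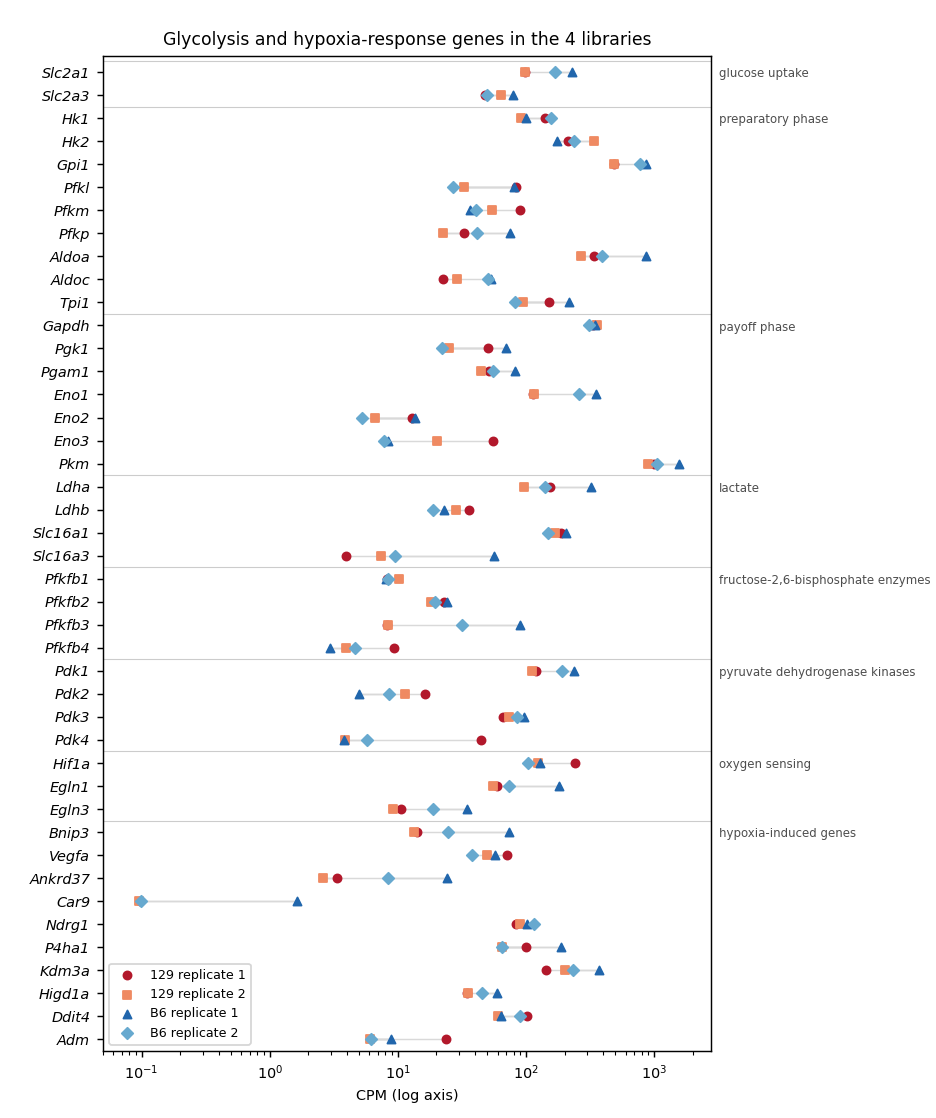
CPM of each of the 43 genes (rows, ordered by role) in the 4 libraries on a log axis, with circles and squares for the 129 libraries and triangles and diamonds for the B6 libraries. The blue triangle of B6 replicate 1 is the rightmost symbol for 26 of the 42 tested genes, and for Pfkfb3 both 129 symbols (8.31 and 8.39 CPM) lie left of both B6 symbols (90.4 and 31.9 CPM).

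Eno1 (chr4:150236721-150248879, plus strand, GRCm38), the widely expressed enolase of the payoff phase, had 113 and 116 CPM in the 129 libraries, against 349.8 and 258 CPM in the B6 libraries. The strains did not overlap, and the 129 libraries were nearly equal. Eno1 fell in 129, by a log2 fold change (129 over B6) of -1.41 (SE 0.21, edgeR adjusted p = 0.034). Of the 76-base windows of its transcripts 44.1% occur also in other genes, among them the near-identical Eno1b, so its counts are uncertain. Eno1b itself had 23.3 and 22.4 CPM in 129, against 56.1 and 4.46 CPM in B6. With the counts of both genes summed, a check added after seeing the data, the log2 fold change was -1.29 (SE 0.24, edgeR adjusted p = 0.048). Leaving out any of the 4 libraries ended the call of Eno1, with log2 fold changes of -1.66 to -1.18. Such a fit leaves 1 library in a strain. Without 129 replicate 1 or either B6 library most genes lost their calls, so a lost call there is not particular to Eno1. The fit without 129 replicate 2 called more genes than the fit with all 4 libraries, and Eno1 lost its call there too.

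Pfkfb3 (chr2:11471433-11554077, minus strand) encodes the enzyme of its family that favours making the phosphofructokinase activator, and it is a known HIF target. It had 8.31 and 8.39 CPM in the 129 libraries, against 90.4 and 31.9 CPM in the B6 libraries. Both B6 libraries were above both 129 libraries, and B6 replicate 1 stood 2.84-fold above B6 replicate 2 (exact 95% counting interval 2.60 to 3.10, which covers counting error only). Pfkfb3 fell in 129, by a log2 fold change of -2.87 (SE 0.52, edgeR adjusted p = 0.047), and no other gene shares its windows. As said for Eno1, fits without 1 of the 4 libraries can lose the calls of most genes, but the one without 129 replicate 2 called more genes. The call of Pfkfb3 ended in each of these fits, that without 129 replicate 2 included, with log2 fold changes of -3.48 to -1.94. It also ended without a filter (adjusted p = 0.058), with a stricter filter (adjusted p = 0.059) and in limma-voom (adjusted p = 0.095).

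The tests differed in how many members they called. DESeq2 called 12 members (28.6%, against 15.3% of all genes), 10 lower (5.7% of all genes) and 2 higher (9.63% of all genes) in 129, and limma-voom called Eno1 alone, lower in 129 (2.38%, against 1.54% of all genes in either direction and 0.606% lower), and 0 members higher (0.931% of all genes). The 10 that DESeq2 called lower were Pdk1, Aldoc, Slc16a3, Pfkfb3, Slc2a1, Egln3, Gpi1, Ankrd37, Eno1 and Bnip3, and the 2 higher were Pdk4 and Eno3. An unadjusted edgeR p under 0.05 was found for 16 members (38.1%), against 28.1% of all genes; for the 14 lower in 129 the background was 12.2% and for the 2 higher, Pfkm and Eno3, it was 15.9%. The libraries of the strains did not overlap for 23 members (54.8%), a smaller share than the 60.1% of all genes: 19 were lower in 129 (45.2%, against 29.2%) and 4 higher (9.52%, against 31.0%). With 2 libraries a strain the smallest two-sided p of an exact permutation test of 1 gene is 0.333.

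Glucose enters these cells through facilitative transporters. Slc2a1, the main transporter, had 98.0 and 98.5 CPM in the 129 libraries, against 228 and 168 CPM in the B6 libraries. The strains were apart, and the test just missed the threshold (log2 fold change -1.01, SE 0.21, edgeR adjusted p = 0.054). Slc2a3, a transporter of high affinity, had 48.4 and 63.7 CPM in 129, against 79.1 and 49.3 CPM in B6, and the strains overlapped.

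In the preparatory phase the 9 members had a median log2 fold change of -0.29, and edgeR called 0 of them. At an unadjusted p under 0.05 edgeR had 1 higher and 4 lower in 129, against 15.9% and 12.2% of all genes. DESeq2 called 2 lower, against 5.7% of all genes, and limma-voom 0, against 1.54%. Gpi1, which interconverts the hexose phosphates, had 489 and 487 CPM in the 129 libraries, against 861 and 775 CPM in the B6 libraries (log2 fold change -0.74, SE 0.16, edgeR adjusted p = 0.056). Its libraries agreed closely within each strain. Aldoc, the aldolase best known from brain, had 22.6 and 28.9 CPM in 129, against 53.3 and 50.2 CPM in B6 (log2 fold change -1.01, SE 0.26, edgeR adjusted p = 0.069). Aldoa, the main aldolase, had 342 and 271 CPM in 129, against 862 and 389 CPM in B6, so that most of its height in B6 lay in replicate 1 (log2 fold change -1.03, SE 0.37, edgeR adjusted p = 0.135). The hexokinases, which trap glucose in the cell, did not share this order: Hk2 had 214 and 342 CPM in 129, against 176 and 237 CPM in B6, and Hk1 had 139.9 and 92.3 CPM in 129, against 101 and 157 CPM in B6. Both overlapped between the strains.

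The phosphofructokinase genes, whose enzymes take the committing step, differed in direction. Pfkm, the muscle form, had 89.5 and 54.2 CPM in the 129 libraries, against 36.6 and 40.6 CPM in the B6 libraries (log2 fold change 0.90, SE 0.29, edgeR adjusted p = 0.109). Pfkp, the platelet form, had 33.0 and 22.5 CPM in 129, against 74.8 and 41.3 CPM in B6 (log2 fold change -1.07, SE 0.36, edgeR adjusted p = 0.117). Pfkl, the liver form, had 83.6 and 32.6 CPM in 129, against 80.8 and 26.8 CPM in B6, so it separated replicate 1 from replicate 2 in both strains and not the strains. Tpi1, which interconverts the triose phosphates, had 151 and 95.4 CPM in 129, against 218 and 82.1 CPM in B6, with B6 replicate 1 highest and B6 replicate 2 lowest.

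In the payoff phase Eno1 was the only one of 7 members that passed the test. Gapdh, the dehydrogenase often used as a reference, had 337 and 359 CPM in the 129 libraries, against 349 and 313 CPM in the B6 libraries (log2 fold change 0.07, SE 0.17), and 55.4% of its windows are shared with copies elsewhere in the genome. Pgk1, the first enzyme here to make ATP, had 50.2 and 25.1 CPM in 129, against 69.9 and 22.2 CPM in B6; 67.5% of its windows are shared, so its counts are uncertain. Pgam1, a mutase with 40.6% of its windows shared, had 51.9 and 44.4 CPM in 129, against 81.9 and 54.9 CPM in B6. Pkm, the pyruvate kinase that ends the pathway, had 990.2 and 892 CPM in 129, against 1563 and 1048 CPM in B6 (log2 fold change -0.47, SE 0.22, edgeR adjusted p = 0.222). For all of these except Gapdh the highest library was B6 replicate 1.

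Eno3, the enolase of muscle, ran the other way to Eno1. It had 55.0 and 20.1 CPM in the 129 libraries, against 8.32 and 7.87 CPM in the B6 libraries. Both 129 libraries were above both B6 libraries, 129 replicate 1 by more than replicate 2, and the test just missed the threshold (log2 fold change 2.21, SE 0.52, edgeR adjusted p = 0.062). Without 129 replicate 2 it was called (log2 fold change 2.76, edgeR adjusted p = 0.021), and without 129 replicate 1 the log2 fold change was 1.32 (edgeR adjusted p = 0.31). Eno2, the neuronal enolase, had 12.8 and 6.59 CPM in 129, against 13.7 and 5.30 CPM in B6, a split by replicate number within each strain.

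Lactate is made by lactate dehydrogenase and leaves through monocarboxylate transporters. Ldha, the subunit that favours lactate, had 154 and 97.1 CPM in the 129 libraries, against 321 and 139.95 CPM in the B6 libraries, and the strains overlapped (log2 fold change -0.88, SE 0.42, edgeR adjusted p = 0.231). Ldhb, the subunit that favours pyruvate, had 36.1 and 28.2 CPM in 129, against 22.9 and 18.9 CPM in B6, with the strains apart (log2 fold change 0.62, SE 0.30, edgeR adjusted p = 0.226). Slc16a3, the exporter of glycolytic cells and a HIF target, had 3.96 and 7.44 CPM in 129, against 56.8 and 9.51 CPM in B6. One library, B6 replicate 1, stood 5.98-fold above the other B6 library (exact 95% counting interval 5.14 to 6.99). The log2 fold change was -2.55 (SE 0.85, edgeR adjusted p = 0.117), and without B6 replicate 1 it was -0.74. Slc16a1, the transporter of most cells, had 189 and 169.5 CPM in 129, against 204 and 148 CPM in B6.

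For the other Pfkfb genes, which carry sister forms of the same enzyme, the strains overlapped. Pfkfb1 had 8.16 and 10.2 CPM in the 129 libraries, against 8.03 and 8.37 CPM in the B6 libraries (log2 fold change 0.16, SE 0.38). Pfkfb2 had 22.8 and 18.2 CPM in 129, against 24.3 and 19.5 CPM in B6 (log2 fold change -0.10, SE 0.32). Pfkfb4 had 9.32 and 3.94 CPM in 129, against 2.93 and 4.60 CPM in B6 (log2 fold change 0.83, SE 0.56). The difference between Pfkfb3 and these genes was not itself tested.

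Among the kinases that hold pyruvate back from mitochondria, edgeR called 0 of 4. At an unadjusted p under 0.05 edgeR had 1 lower in 129, against 12.2% of all genes. DESeq2 called 1 higher and 1 lower, against 9.63% and 5.7% of all genes, and limma-voom 0, against 1.54%. Pdk1, the HIF target among them, had 119.6 and 111 CPM in the 129 libraries, against 238 and 191 CPM in the B6 libraries (log2 fold change -0.90, SE 0.20, edgeR adjusted p = 0.055). Pdk2 had 16.2 and 11.4 CPM in 129, against 4.94 and 8.51 CPM in B6 (log2 fold change 1.05, SE 0.44, edgeR adjusted p = 0.179), and Pdk3 had 66.2 and 73.4 CPM in 129, against 95.9 and 84.6 CPM in B6. In both genes the strains were apart, in opposite directions. Pdk4, a kinase induced by fasting in other tissues, had 44.9 and 3.84 CPM in 129, against 3.82 and 5.74 CPM in B6. It was high in 129 replicate 1 alone: the log2 fold change was 2.36 (SE 1.03, edgeR adjusted p = 0.198), 3.24 without 129 replicate 2, where the call passed (edgeR adjusted p = 0.023), and -0.30 without 129 replicate 1.

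The hypoxia response genes had a median log2 fold change of -0.60 over the 12 tested, against -0.24 for the 30 glycolysis genes and 0.015 for all tested genes, and edgeR called none of the 12. At an unadjusted p under 0.05 edgeR had 0 of them higher and 5 lower in 129, against 15.9% and 12.2% of all genes. DESeq2 called 0 higher and 3 lower, against 9.63% and 5.7% of all genes, and limma-voom called 0, against 1.54%. Hif1a, the regulated HIF subunit, had 241 and 125 CPM in the 129 libraries, against 129 and 103 CPM in the B6 libraries; HIF itself is controlled mostly at the protein, which was not measured. Egln1, the main HIF prolyl hydroxylase, had 59.8 and 55.0 CPM in 129, against 179.7 and 74.1 CPM in B6 (log2 fold change -1.15, SE 0.40, edgeR adjusted p = 0.126). Egln3, the most inducible of these hydroxylases, had 10.7 and 9.20 CPM in 129, against 35.0 and 18.8 CPM in B6 (log2 fold change -1.44, SE 0.41, edgeR adjusted p = 0.084). For both Egln genes the strains were apart and B6 replicate 1 was highest; without that library the log2 fold changes were -0.37 for Egln1 and -0.92 for Egln3.

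Of the genes that HIF induces, Ankrd37, an ankyrin repeat gene, had 3.33 and 2.61 CPM in the 129 libraries, against 24.2 and 8.32 CPM in the B6 libraries (log2 fold change -2.46, SE 0.62, edgeR adjusted p = 0.068). Bnip3, which marks mitochondria for removal, had 14.1 and 13.3 CPM in 129, against 73.2 and 24.8 CPM in B6 (log2 fold change -1.84, SE 0.51, edgeR adjusted p = 0.084). Both genes had low and nearly equal values in the 129 libraries, and the B6 libraries were apart by 2.91-fold for Ankrd37 (exact 95% counting interval 2.45 to 3.48) and 2.96-fold for Bnip3 (2.68 to 3.27). Without B6 replicate 1 the log2 fold changes were -1.49 and -0.86. Both genes carry counting doubts: genes on the opposite strand overlap 26.4% of the exon bases of Ankrd37 and 22.3% of those of Bnip3, 28.7% of the windows of Bnip3 are shared, and the labels do not say whether counting used strand. Car9, a carbonic anhydrase and a sensitive HIF target, was nearly absent, with 2 and 2 counts in 129, against 41 and 2 counts in B6. It did not pass the filter on low counts, and B6 replicate 1 was 16.6-fold above replicate 2 (exact 95% counting interval 4.32 to 142).

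Kdm3a, a histone demethylase, had 144 and 203 CPM in the 129 libraries, against 369.5 and 234 CPM in the B6 libraries (log2 fold change -0.80, SE 0.28, edgeR adjusted p = 0.126). P4ha1, a subunit of the collagen prolyl hydroxylase, had 99.9 and 64.9 CPM in 129, against 188 and 64.8 CPM in B6, high in B6 replicate 1 alone. Higd1a, a mitochondrial protein, had 34.4 and 35.6 CPM in 129, against 59.6 and 45.6 CPM in B6, with the strains apart; a gene on the opposite strand overlaps 22.5% of its exon bases. In the next 4 members B6 replicate 1 was not the highest library. Vegfa, the angiogenic factor, had 70.8 and 49.6 CPM in 129, against 57.0 and 37.9 CPM in B6, and Ndrg1, a stress-response gene, had 84.0 and 89.6 CPM in 129, against 102 and 116 CPM in B6. Ddit4, an inhibitor of mTOR signalling, had 102 and 60.4 CPM in 129, against 64.3 and 89.3 CPM in B6. Adm, the precursor of the peptide adrenomedullin, had 23.7 and 6.02 CPM in 129, against 8.80 and 6.19 CPM in B6, high in 129 replicate 1 alone. Only Ndrg1 of these 4 had its strains apart.

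The gap between the B6 libraries was then set against the difference between the strains, both on the scale of log2 (CPM + 0.5). Each gap compares 1 library with 1 library and has no test. B6 replicate 1 was above B6 replicate 2 in 33 of the 42 tested members (78.6%), against 49.6% of all tested genes, and the median log2 ratio was 0.45, against -0.0011. It was at least 2-fold above in 12 members (28.6%, against 5.13% of all genes): Slc16a3, Pgk1, Pfkl, Bnip3, P4ha1, Pfkfb3, Ankrd37, Tpi1, Eno2, Egln1, Ldha and Aldoa. The reverse, B6 replicate 2 at least 2-fold above replicate 1, was found for 0 members, against 4.91% of all genes. B6 replicate 1 was the highest of the 4 libraries for 26 members (61.9%, against 27.5% of all genes), and B6 replicate 2 for 2 (4.76%, against 23.9%). The 129 libraries were the highest for the other members, replicate 1 for 11 (26.2%, against 31.2%) and replicate 2 for 3 (7.14%, against 17.4%).

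The gap within B6 was larger than the difference between the strains for 19 members (45.2%, against 40.9% of all genes), so by this count the members stood near the background. For Slc16a3 the gap was 2.52 and the strain difference -2.01, and for Pgk1 they were 1.63 and -0.15. P4ha1 had a gap of 1.53 and a strain difference of -0.45, and Ldha a gap of 1.20 and a strain difference of -0.79. In contrast, the strain difference was the larger one for Pfkfb3 (-2.62, with a gap of 1.49), Ankrd37 (-2.10, with a gap of 1.49) and Eno1 (-1.39, with a gap of 0.44), and about equal to the gap for Bnip3 (-1.61, with a gap of 1.55).

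**Figure D2:**
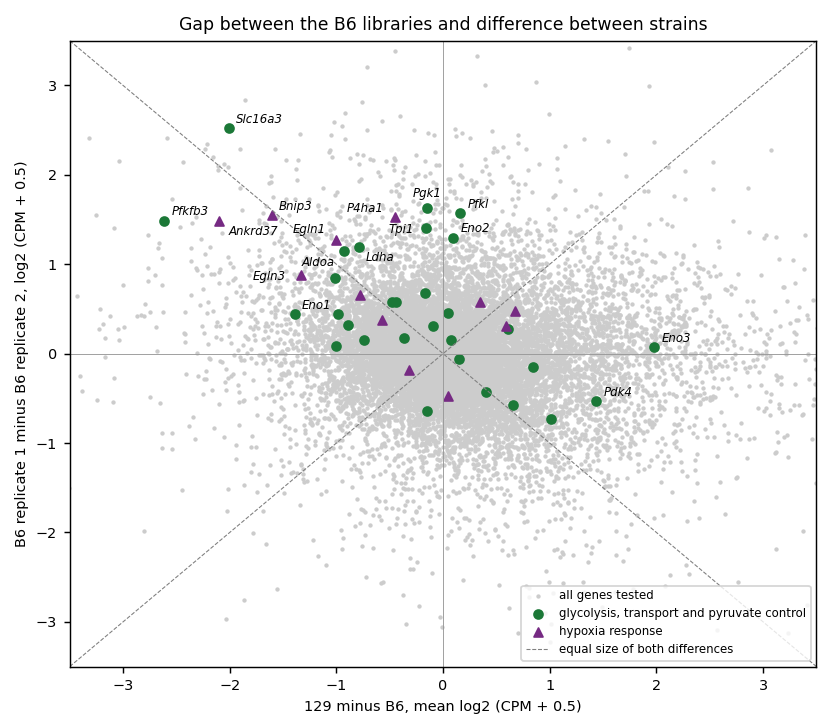
Difference between the strains (x axis, 129 minus B6, mean log2 of CPM + 0.5) and gap between the B6 libraries (y axis, replicate 1 minus replicate 2) for all 16005 tested genes in grey, glycolysis genes as green circles and hypoxia response genes as purple triangles; the dashed lines mark equal size of both, and the axes end at 3.5. Members lie mostly above the horizontal line, 33 of 42, with Slc16a3 at the top (2.52) and Pfkfb3 farthest left (-2.62).

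Within 129 the gaps were smaller in the median. Replicate 1 was above replicate 2 in 29 of 42 members (69.0%, against 49.5% of all genes), with a median log2 ratio of 0.26, against -0.0046 over all genes. It was at least 2-fold above in 5 members (11.9%, against 9.02%), namely Pdk4, Adm, Eno3, Pfkl and Pfkfb4, and the reverse was found for 0 members (0.631% of all genes). The gap was larger within B6 than within 129 for 30 members (71.4%, against 53.3%), and the gap within 129 exceeded the strain difference for 18 (42.9%, against 35.5%). Only Pfkl was among the 2-fold gaps of both strains.

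Because the B6 libraries differed, each was also set against the mean of the 129 libraries. B6 replicate 1 stood above 129 by a median of 0.68 over the members and B6 replicate 2 by 0.17, on the log2 scale. For the hypoxia response genes these medians were 0.94 and 0.37, and for the glycolysis genes 0.59 and -0.089. The median log2 fold change of 129 over B6 over all members, -0.31 with 26 of 42 below 0 (61.9%, against 49.1% of all genes), was -0.15 without B6 replicate 1 and -0.78 without B6 replicate 2. It was -0.56 without 129 replicate 1 and -0.37 without 129 replicate 2, so its size rested on single libraries while its sign did not turn in these 4 fits. Single members moved likewise. Without B6 replicate 1 the log2 fold change was -0.58 for Pfkp, -0.35 for Aldoa, -0.20 for Pgam1, -0.16 for Pkm, -0.16 for Ldha and -0.44 for Kdm3a. Without B6 replicate 2 it was -1.47 for Pfkp, -1.53 for Aldoa, -0.81 for Pgam1, -0.78 for Pkm, -1.40 for Ldha and -1.14 for Kdm3a.

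Levels of different genes were compared as RPKM, CPM per kilobase of merged exons, so levels and shares of different genes depend on this length. Pkm was the most abundant, at 198 and 178 RPKM in the 129 libraries, against 313 and 209.6 RPKM in the B6 libraries. Aldoa came next at 118 and 93.2 RPKM in 129, against 296 and 134 RPKM in B6, and its range overlapped that of Gpi1 (75.9 and 75.5 RPKM in 129, against 133 and 120.2 RPKM in B6). The lowest tested members by mean level were Pfkfb4, from 0.602 to 1.91 RPKM over the 4 libraries, and Eno2, from 1.13 to 2.92 RPKM. Summed by step, the aldolases had 125 and 102 RPKM in 129, against 312 and 149 RPKM in B6, and the glucose transporters had 34.6 and 36.9 RPKM in 129, against 75.9 and 54.6 RPKM in B6. The hexokinase step had 52.3 and 68.2 RPKM in 129, against 41.3 and 58.2 RPKM in B6, and was the one step at which B6 replicate 1 was the lowest library.

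**Figure D3:**
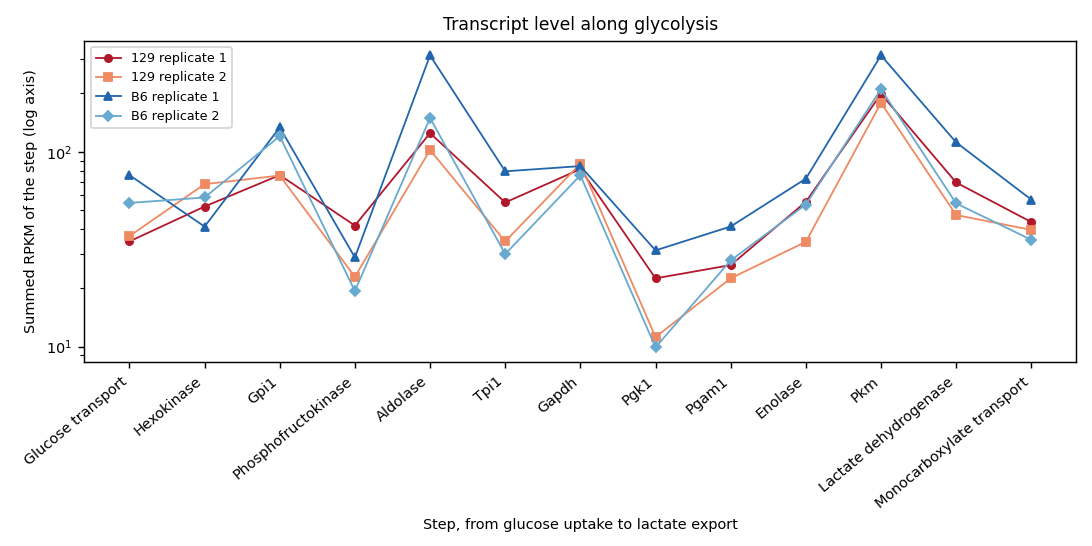
Summed RPKM of the genes of each step (log axis) from glucose transport to lactate export, with 1 line for each library. The line of B6 replicate 1 is highest at most steps, for example 312 RPKM for the aldolases, and lowest at the hexokinases (41.3 RPKM); at Gapdh all 4 lines lie between 75.7 and 86.8 RPKM.

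Where several genes serve one step, their shares of the summed RPKM differed between the libraries. Eno3 made up 57.2% and 33.5% of enolase RPKM in the 129 libraries, against 6.57% and 8.45% in the B6 libraries, and Eno1 37.9% and 62.4% in 129, against 89.4% and 89.4% in B6. The enolase sum itself overlapped, with 55.3 and 34.5 RPKM in 129, against 72.7 and 53.6 RPKM in B6. Pfkfb3 made up 13.4% and 16.0% of the Pfkfb sum in 129, against 66.8% and 42.5% in B6. Ldhb made up 33.1% and 38.0% of lactate dehydrogenase RPKM in 129, against 13.1% and 22.1% in B6. In these 3 families the shares did not overlap between the strains. Among the phosphofructokinases the share of Pfkp did not overlap either (5.89% and 7.37% in 129, against 19.5% and 16.0% in B6), while that of Pfkl did (29.98% and 21.4% in 129, against 42.3% and 20.9% in B6). Pfkm made up 64.1% and 71.2% in 129, against 38.3% and 63.2% in B6, so 129 replicate 1 and B6 replicate 2 were nearly equal. Shares carry counting error and the doubt on shared windows of Eno1, and with 2 libraries a strain they were not tested.

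**Figure D4:**
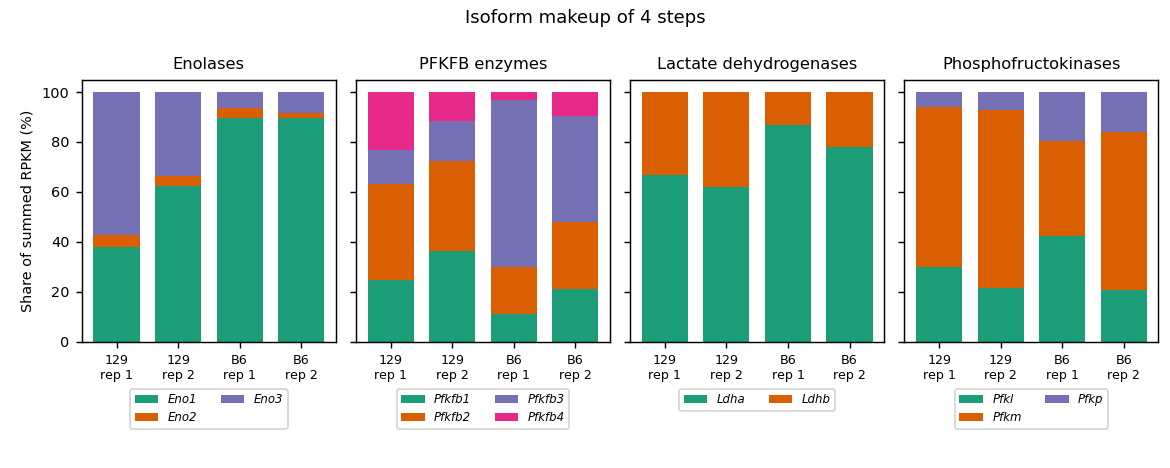
Share of each gene in the summed RPKM of its family (stacked bars, in percent) in the 4 libraries, 129 on the left and B6 on the right of each panel, for the enolases, the Pfkfb enzymes, the lactate dehydrogenases and the phosphofructokinases. Eno3 takes 57.2% and 33.5% of the enolase bar in 129, against 6.57% and 8.45% in B6, and Pfkfb3 takes 66.8% of the Pfkfb bar in B6 replicate 1.

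The list of other known HIF target genes held 37 genes, all tested. B6 replicate 1 was above replicate 2 in 30 of 37 (49.6% of all genes) and at least 2-fold in 14 (5.13% of all genes). It was the highest of the 4 libraries for 24 (27.5% of all genes). The median gap was 0.70 and the median gap within 129 was 0.26. For 26 of the 37 the gap within B6 was larger than the difference between the strains, against 40.9% of all genes. Between the strains edgeR called 0 of them higher and 2 lower in 129 (1.84% and 1.02% of all genes), and the median log2 fold change was -0.25. At an unadjusted p under 0.05 edgeR had 1 higher and 9 lower, against 15.9% and 12.2% of all genes. DESeq2 called 1 higher and 6 lower, against 9.63% and 5.7% of all genes, and limma-voom called 0, against 1.54%. Loxl2, which cross-links collagen, had 1.64 and 1.52 CPM in the 129 libraries, against 229 and 73.5 CPM in the B6 libraries, and it fell in 129, by a log2 fold change of -6.58 (SE 0.68, edgeR adjusted p = 0.029). Of its windows 43.6% occur also in 9 other genes, so its counts are uncertain. Pgm1, which links glycogen to glycolysis, had 67.6 and 50.7 CPM in 129, against 236 and 152 CPM in B6, and it fell in 129, by a log2 fold change of -1.71 (SE 0.28, edgeR adjusted p = 0.038). Fits without 1 library can lose the calls of most genes, but the one without 129 replicate 2 called more genes. The call of Pgm1 ended in each of these fits, that without 129 replicate 2 included, with log2 fold changes of -2.04 to -1.37. That of Loxl2 ended without 129 replicate 1 or B6 replicate 1, and its log2 fold changes lay between -7.22 and -5.54. In limma-voom neither was called (adjusted p = 0.054 for Pgm1 and 0.062 for Loxl2).

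Genes that build or sense HIF itself were not called. Of 13 subunits and sensors edgeR called 0 higher and 0 lower in 129, and the median gap within B6 was 0.25. At an unadjusted p under 0.05 edgeR had 2 higher and 1 lower, against 15.9% and 12.2% of all genes. DESeq2 called 1 higher, against 9.63% of all genes, and limma-voom 0, against 1.54%. Hif1an, which hydroxylates an asparagine of HIF, had 148 and 179.9 CPM in the 129 libraries, against 266 and 224 CPM in the B6 libraries (log2 fold change -0.58, SE 0.20, edgeR adjusted p = 0.118). Elob, a subunit of the ligase that degrades HIF, had 128 and 121 CPM in 129, against 119 and 137 CPM in B6. Among 12 other glycolysis enzymes that passed the filter of 21 listed, edgeR called 0, and their median gap within B6 was -0.10. At an unadjusted p under 0.05 edgeR had 3 of these enzymes higher and 1 lower, again against 15.9% and 12.2%. DESeq2 called 2 higher and 1 lower, against 9.63% and 5.7% of all genes, and limma-voom 0. Bsg, the partner of the lactate transporters, had 402 and 266 CPM in 129, against 399 and 309 CPM in B6, and Pcx, which turns pyruvate into oxaloacetate, had 152 and 159 CPM in 129, against 77.9 and 159 CPM in B6. Neither gene separated the strains.

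Pyruvate enters mitochondria through a carrier and the pyruvate dehydrogenase complex. Of 10 genes of this entry edgeR called 1, lower in 129 (1.02% of all genes), and the median gap within B6 was 0.017. Mpc2, a subunit of the carrier, had 46.2 and 57.4 CPM in the 129 libraries, against 143 and 111 CPM in the B6 libraries, and it fell in 129, by a log2 fold change of -1.29 (SE 0.23, edgeR adjusted p = 0.046). Fits without 1 of the 4 libraries can lose the calls of most genes, but the one without 129 replicate 2 called more genes. The call of Mpc2 ended in each of these fits, that without 129 replicate 2 included, with log2 fold changes of -1.51 to -1.10. It also ended without a filter (adjusted p = 0.058), with a stricter filter (adjusted p = 0.052) and in limma-voom (adjusted p = 0.060).

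**Figure D5:**
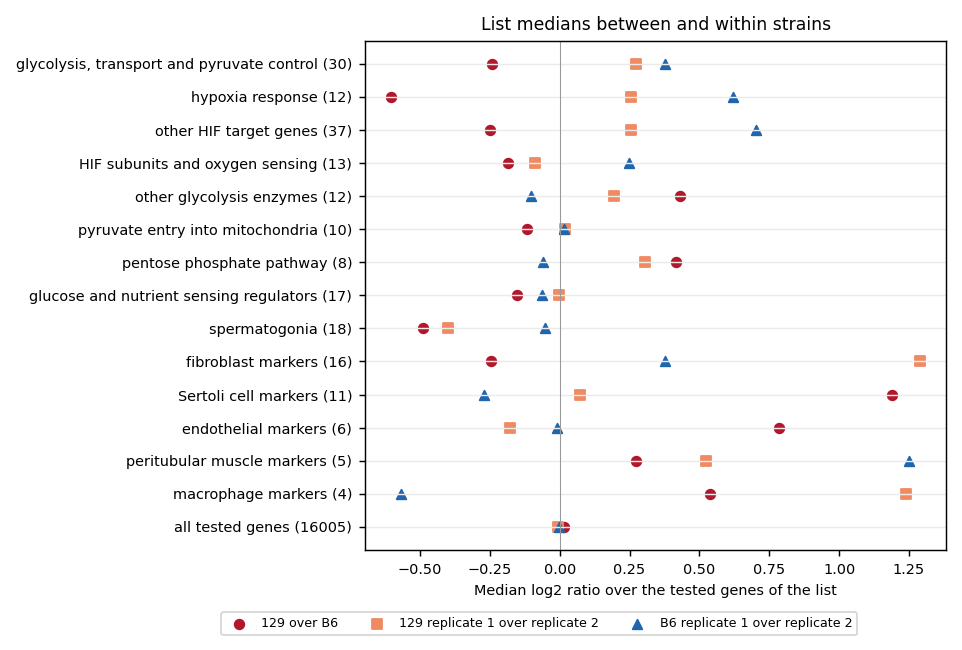
Median log2 ratio over the tested genes of each list (number in brackets) for 129 over B6 (circles), 129 replicate 1 over replicate 2 (squares) and B6 replicate 1 over replicate 2 (triangles). The hypoxia response genes (0.62), other HIF target genes (0.70) and peritubular muscle markers (1.25) have the triangles farthest right, the fibroblast markers have the square farthest right (1.29), and all tested genes lie close to 0.

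Spermatogonia markers were present in all libraries, so the cells carried the genes of their label. Dazl, a germ cell RNA-binding protein, had 635 and 832 CPM in the 129 libraries, against 1052 and 1009.97 CPM in the B6 libraries, and Ret, a growth factor receptor of spermatogonial stem cells, had 529 and 644 CPM in 129, against 147 and 362 CPM in B6. Over 18 markers the median gap within B6 was -0.052, with 9 of 18 higher in B6 replicate 1. Of the 18, edgeR called 2 higher and 1 lower in 129, against 1.84% and 1.02% of all genes. Between the strains their median log2 fold change was -0.49, against -0.31 for the members and 0.015 for all tested genes. At an unadjusted edgeR p under 0.05, 3 were higher and 6 lower in 129, against 15.9% and 12.2% of all genes. The strains were apart with 129 lower for 11 of the 18 (29.2% of all genes) and with 129 higher for 3 (31.0% of all genes). These markers thus leaned lower in 129 too, and their part in the strain difference of the members was not tested.

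Markers of other cells of the testis also differed between the libraries. The 16 fibroblast markers summed to 8257 and 3249.9 CPM in the 129 libraries, against 6929.8 and 4616 CPM in the B6 libraries; 14 of 16 were higher in B6 replicate 1 than in replicate 2 (median log2 ratio 0.38) and 16 of 16 in 129 replicate 1 (median 1.29). None of the 16 was at 0, Fn1 had 4067 and 1667 CPM in 129, against 1775 and 1274 CPM in B6, and Col3a1 had 423 and 126 CPM in 129, against 1357 and 641 CPM in B6. The 5 peritubular muscle markers, none at 0, summed to 92.2 and 39.9 CPM in 129, against 80.5 and 23.4 CPM in B6, with 4 of 5 higher in B6 replicate 1; Acta2 had 54.9 and 11.3 CPM in 129, against 39.9 and 10.5 CPM in B6, and Des had 28.9 and 21.3 CPM in 129, against 2.73 and 2.87 CPM in B6. Within B6 most of these markers were higher in replicate 1, as most members were. The median log2 ratios of replicate 1 over replicate 2 were 0.38 for fibroblast markers and 0.45 for members in B6, and 1.29 and 0.26 in 129. The part of these markers in the result was not tested.

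Endothelial and Sertoli markers were higher in sum in both 129 libraries. Most of the endothelial sum in 129 lay in Eng and Cdh5, and the order of the Sertoli sums rested on Clu. Of the 11 tested Sertoli markers 7 were apart with 129 higher and 1 with 129 lower, against 31.0% and 29.2% of all genes. The 7 endothelial markers, of which 6 passed the filter, summed to 204 and 86.3 CPM in the 129 libraries, against 24.3 and 23.6 CPM in the B6 libraries, of which Eng had 95.9 and 32.6 CPM in 129, against 4.74 and 5.0 CPM in B6, and Cdh5 had 87.9 and 27.0 CPM in 129, against 0.723 and 2.62 CPM in B6. The 12 Sertoli markers, of which 11 passed, summed to 755 and 638 CPM in 129, against 586 and 480.3 CPM in B6; Clu had 193 and 90.5 CPM in 129, against 3.78 and 10.1 CPM in B6, Tjp1 had 468 and 485 CPM in 129, against 555 and 449.8 CPM in B6, and Fshr had 0 and 0 counts in 129, against 1 and 0 counts in B6. The 7 macrophage markers, of which 4 passed, summed to 50.2 and 18.6 CPM in 129, against 28.9 and 26.6 CPM in B6, with Cd14 at 28.3 and 9.20 CPM in 129, against 2.45 and 3.47 CPM in B6, and Lyz2 at 7.87 and 3.32 CPM in 129, against 9.72 and 16.8 CPM in B6. Of 7 Leydig markers Star alone passed, with 3.48 and 3.89 CPM in 129, against 8.11 and 5.79 CPM in B6, and Cyp17a1 had 0 and 0 counts in 129, against 2 and 0 counts in B6. Between the strains edgeR called 2 of 6 endothelial, 2 of 11 Sertoli, 1 of 16 fibroblast and 1 of 5 peritubular muscle markers higher in 129. Over all genes 1.84% were called higher in 129. The endothelial and Sertoli sums were higher in 129, opposite in direction to Eno1 and Pfkfb3, and their part in that result was not tested.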

How the data were processed

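RNA of 4 libraries of GS cells was sequenced as single reads of 76 bases from a stranded mRNA kit, per the labels' protocols. The authors deposited a table of unnormalized read counts, with a row for each gene and a column for each library. Per the submitters' processing notes, the tools were HISAT2 2.2.1, HTSeq 0.13.5, cutadapt 3.4, bcl2fastq 2.20 and DESeq2 1.30.1 and the build was mm10. Settings, strandedness and annotation were not given in the sources used here. Counts of overlapping genes and of close copies may thus be split or mixed, and the reference of the 129 reads was that of C57BL/6.

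The whole table was fitted in edgeR 4.0.16 (R 4.3.3): filterByExpr kept 16005 of 32285 genes, TMM gave the factors, and a robust quasi-likelihood model with strain alone was tested (biological coefficient of variation 0.309). Benjamini-Hochberg adjustment ran over every tested gene, and each SE is the size of the log2 fold change over the square root of F. CPM use library sizes scaled by TMM, RPKM divide CPM by the merged exon length in GENCODE M21 of the same build, and gaps are log2 ratios of CPM + 0.5. Ratios of counts have exact 95% intervals. Without molecular identifiers PCR copies cannot be told from molecules, so intervals cover counting error only. Shared windows are the 76-base stretches of a gene's protein-coding transcripts that occur in another gene's. Neither strain held a duplicated library (chi-square per gene 75.6 in 129 and 59.3 in B6).

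The members and all lists were chosen with earlier results of these data known. All members may be named; other pathway lists gave their called genes, or their 2 genes of highest mean CPM if there was no call, and cell type lists their 2 genes of highest mean CPM. Eno1b, Fshr and Cyp17a1 were named after their values were seen. The alternatives were DESeq2 size factors, library totals, upper-quartile factors, no filter, a stricter filter (5 CPM in 2 libraries), a pseudocount of 2 CPM, DESeq2 1.42.0, limma-voom in limma 3.58.1, a replicate block and each library left out; the legacy form of the edgeR test and the sum of Eno1 and Eno1b were added after seeing the data. The fits were tested on simulated data.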

Additional observations from a re-analysis of the deposited data

How the results depend on the processing

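Of all genes, 457 were called, against 1052 with library totals, 1021 with upper-quartile factors, 260 without a filter, 272 with a stricter filter, 2455 in DESeq2, 246 in limma-voom and 0 to 827 with a library left out. Called members numbered 2, against 4 with library totals or upper-quartile factors (Slc2a1 and Eno3 in addition), 1 without a filter, with a stricter filter or in limma-voom (Eno1), 12 in DESeq2 and 0 to 2 with a library left out; the 2 called without 129 replicate 2 were Pdk4 and Eno3. Without B6 replicate 1 edgeR called 0 genes, with 3251 at an unadjusted p under 0.05. In these leave-one-out fits the lone library of a strain is assumed to vary like the other strain's libraries. A call lost or gained in them does not single out a gene. The cause of these changes was not tested. Over all tested genes the deviations of same-numbered libraries were not correlated (-0.019). This value cannot decide whether the members share a replicate effect. Replicate 1 was above replicate 2 for 33 of 42 members in B6 and for 29 of 42 in 129. With the replicate number as a block 844 genes were called and the same 2 members, and the median log2 fold change of the members was -0.25.

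The median log2 fold change of the members was -0.31 and lay between -0.78 and -0.15 with a library left out. The median gap within B6 stayed at 0.44 to 0.49 and that within 129 at 0.21 to 0.26 over the other scalings, filters and the pseudocount, with 18 to 20 members whose gap within B6 exceeded the strain difference and 23 to 24 whose strains did not overlap. Scaling turned the sign of Eno2 (-0.0044 with DESeq2 size factors) and Elob (0.0019 with library totals), both near 0. Leaving out a library turned the sign of the log2 fold change for Slc2a3 (-0.54 to 0.18), Hk1 (-0.48 to 0.16), Pfkl (-0.72 to 1.11), Tpi1 (-0.87 to 0.58), Gapdh (-0.048 to 0.15), Pgk1 (-0.94 to 0.75), Eno2 (-0.55 to 0.86), Pfkfb1 (-0.0043 to 0.32), Pfkfb2 (-0.29 to 0.064), Slc16a1 (-0.23 to 0.27), Pdk4 (-0.30 to 3.24), P4ha1 (-1.23 to 0.34), Ddit4 (-0.34 to 0.41), Adm (-0.32 to 1.65), Elob (-0.15 to 0.019), Bsg (-0.41 to 0.19), Pcx (-0.037 to 0.95), Tjp1 (-0.26 to 0.076) and Acta2 (-1.16 to 1.65). None of these genes was called in the main edgeR fit with all 4 libraries, while DESeq2 called Pdk4 higher in 129 (DESeq2 adjusted p = 0.044). Depth did not limit the abundant members, but Car9, with 2 to 41 counts a library, could not be tested.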

Other observations

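The pentose phosphate pathway, which branches off glycolysis to make NADPH and ribose, had 8 genes tested, with a median gap within B6 of -0.060. Of these edgeR called 1 higher and 0 lower in 129, against 1.84% and 1.02% of all genes. H6pd, the dehydrogenase of this pathway in the endoplasmic reticulum, had 182 and 79.1 CPM in the 129 libraries, against 25.9 and 26.5 CPM in the B6 libraries, and it rose in 129, by a log2 fold change of 2.32 (SE 0.40, edgeR adjusted p = 0.044). The call of H6pd ended without 129 replicate 1 (log2 fold change 1.60), B6 replicate 1 or B6 replicate 2, in fits that can lose the calls of most genes. It also ended without a filter (adjusted p = 0.055), with a stricter filter (adjusted p = 0.056) and in limma-voom (adjusted p = 0.078). Of 17 glucose and nutrient sensing regulators edgeR called 0. At an unadjusted p under 0.05 edgeR had 2 higher and 2 lower, against 15.9% and 12.2% of all genes. DESeq2 called 2 higher, against 9.63% of all genes, and limma-voom 0, against 1.54%. Mtor, the nutrient-sensing kinase, had 274 and 333 CPM in 129, against 404 and 391 CPM in B6, and Txnip, which restrains glucose uptake, had 341 and 185 CPM in 129, against 362 and 367 CPM in B6.

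Glycolysis isoforms of later male germ cells were low: 3 of 9 listed passed the filter, and edgeR called 0 of them. At an unadjusted p under 0.05 edgeR had 1 lower in 129, against 12.2% of all genes. DESeq2 called 1 lower, against 5.7% of all genes, and limma-voom 0, against 1.54%. Ldhc, the lactate dehydrogenase of spermatocytes and sperm, had 3.48 and 4.69 CPM in the 129 libraries, against 11.7 and 8.22 CPM in the B6 libraries (log2 fold change -1.29, SE 0.44, edgeR adjusted p = 0.118). Pdha2, a germ cell subunit of pyruvate dehydrogenase, had 28.5 and 33.1 CPM in 129, against 34.3 and 48.8 CPM in B6. Gapdhs, the sperm form of the dehydrogenase and named here after its values were seen, had 0 counts in all 4 libraries.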
